A study of Mus musculus with 2 samples.

Results

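Round spermatids with few protamine and transition protein transcripts were examined in the mouse testis. They were 773 of 6823 cells of a library from mice aged 24 months (aged). A library from mice aged 2 months (young) gave 499 of 2771 cells, which makes 1272 of 9594 cells in all. A cell was taken when it had a total of at least 3215 counts, at most 25% mitochondrially encoded counts, under 0.5% of its counts from the Leydig cell genes Cyp17a1, Ptgds, Hsd3b6 and Star, and under 0.3% from the protamine and transition protein genes Prm1, Prm2, Tnp1 and Tnp2. In addition, its counts summed over the acrosomal genes Acrv1, Spaca1, Spaca3, Spaca7, Tex36 and Lyzl6 had to reach 3 and to exceed those summed over the meiotic genes Sycp1, Sycp2, Sycp3, Syce1, Pou5f2 and Ccna1. The limit of 3215 is the smallest total found in the young table. These counts chose the cells, so the levels of the genes in the rule, and every level compared with neighbouring classes chosen the same way, are a description and not a test.

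By its title, the study set testicular cells of young and old mice side by side, with 1 single-cell RNA library per age captured on the BD Rhapsody microwell system. The labels give neither strain nor genotype nor the number of mice behind a library. Both groups were anaesthetised with Avertin, and their testes were freed of the tunica, digested with accutase and strained. The labels call the captured cells stroma, while round spermatids and spermatocytes, which are germ cells, make up much of both tables.

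Round spermatids are the haploid cells left by the meiotic divisions, and they still transcribe actively before their chromatin is compacted. In this phase the Golgi-derived acrosome is laid over the nucleus, the axoneme of the tail is started, and many transcripts are stored for translation after transcription stops. The factors CREM and RFX2 act on many spermatid genes, and histones are later exchanged for transition proteins and then protamines. Most X- and Y-linked genes are silenced in the pachytene spermatocyte, and a part of them is transcribed again after meiosis.

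To show what lies upstream of genes on which the description turns, the 250 bases before the RefSeq gene start (GRCm38.p6) were searched on both strands for TGACGTCA, the full cAMP response element bound by CREM, for its core TGACG, and for GTTGCC, an arm of the X-box bound by RFX factors. The full element holds the core on both strands. Capitals mark the matches, and GGCAAC is GTTGCC read on the other strand. The regions shown are chr9:36692970-36693219 on the plus strand for Acrv1, chr4:34050066-34050315 on the minus strand for Spaca1, chr7:133602116-133602365 on the minus strand for Tex36, chr9:110844256-110844505 on the plus strand for Prss46 and chr3:79842680-79842929 on the minus strand for Tmem144, each written 5′ to 3′ along the gene.
Acrv1: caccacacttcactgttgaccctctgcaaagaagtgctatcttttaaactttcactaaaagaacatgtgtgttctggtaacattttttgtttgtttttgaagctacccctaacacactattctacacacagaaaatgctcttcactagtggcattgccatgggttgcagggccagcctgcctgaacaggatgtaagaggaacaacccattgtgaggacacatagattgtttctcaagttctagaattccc
Spaca1: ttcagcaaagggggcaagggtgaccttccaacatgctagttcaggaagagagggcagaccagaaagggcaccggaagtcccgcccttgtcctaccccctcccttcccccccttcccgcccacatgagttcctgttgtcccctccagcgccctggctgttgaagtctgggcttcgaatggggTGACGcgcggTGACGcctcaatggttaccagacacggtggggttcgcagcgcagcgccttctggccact
Tex36: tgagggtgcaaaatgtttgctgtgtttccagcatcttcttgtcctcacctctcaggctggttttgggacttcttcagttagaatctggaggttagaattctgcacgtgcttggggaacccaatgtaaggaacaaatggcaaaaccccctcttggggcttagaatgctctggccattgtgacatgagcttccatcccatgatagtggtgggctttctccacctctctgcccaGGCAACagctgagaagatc
Prss46: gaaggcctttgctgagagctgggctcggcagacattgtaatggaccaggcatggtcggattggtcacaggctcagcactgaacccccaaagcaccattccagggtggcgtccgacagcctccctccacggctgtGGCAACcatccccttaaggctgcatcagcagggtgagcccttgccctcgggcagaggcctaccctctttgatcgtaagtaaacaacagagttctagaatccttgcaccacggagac
Tmem144: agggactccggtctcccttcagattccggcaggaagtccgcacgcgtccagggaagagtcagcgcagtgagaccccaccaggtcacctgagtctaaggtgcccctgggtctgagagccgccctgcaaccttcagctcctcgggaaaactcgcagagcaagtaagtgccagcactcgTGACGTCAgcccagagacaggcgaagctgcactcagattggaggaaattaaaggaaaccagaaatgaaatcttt

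Acrv1, Spaca1 and Tex36 are acrosomal genes of the rule, Prss46 stands far above both neighbouring classes, and Tmem144 is among the genes furthest higher in late cells of the class. Spaca1 holds TGACG at 69 and 59 bases before the RefSeq start used here. Tmem144 holds the full element at 74 bases before the second of its 4 RefSeq starts. By the GENCODE M21 spans printed below, both Spaca1 matches and the whole Tmem144 window lie inside the gene. Tex36 holds the X-box arm at 19 bases and Prss46 at 116 bases before the start, and the Acrv1 window holds none of these letters. Of 27025 genes in the promoter table, 1.77% hold the full element, 19.8% the core and 11.8% the X-box arm in this window. The core was in 2 of the 6 acrosomal genes and in 5 of the 14 genes with a promoter entry among the 20 genes highest above both neighbouring classes. The X-box arm was in 1 of these 6 and in 5 of these 14. A match is a description of the letters and not of a bound site.

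The summed counts of the round spermatids were 12932825 in the aged and 15397870 in the young library. A cell had a median of 16560 counts and 4992 genes in the aged library and of 29591 counts and 6344 genes in the young. The tables had 39087 and 40184 gene columns, of which 36245 are shared, and 35 cell indices occur in both tables but none of them among the round spermatids. The aged table held 2643 cells under the lowest young total, where the young table held 0. With cells passing the limits on total and mitochondrial share as the base, round spermatids made up 18.5% (exact 95% interval 17.3 to 19.7) of 4180 aged and 18.0% (16.6 to 19.5) of 2770 young cells. These bases differed in make-up. Cells at or over the Leydig gene limit were 12.8% of the aged and 41.8% of the young base, and spermatocytes 58.9% and 26.7%. A gene's level is its CPM, the sum of its counts over a class of cells divided by all counts of that class and library and multiplied by 1000000. Since each age has 1 library, differences between the ages have no replicate behind them and were not tested, and all intervals, exact Poisson for levels and exact conditional binomial for ratios, cover counting error only.

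The rule used acrosomal, meiotic and protamine counts, so the sums of germ cell markers are given as a description of the class. The summed level of 20 round spermatid markers was 7302 CPM in aged and 6859 CPM in young round spermatids, against 674 CPM in aged and 868 CPM in young spermatocytes. None of the 20 was at 0, and 19 were at least 1.5-fold above spermatocytes in both libraries. Over all genes with 50 or more counts, 37.0% were. The 6 acrosomal genes of the rule are among the 20, and the rule favoured their direction. Markers of 16 spermatocyte genes summed to 1591 CPM in aged and 1690 CPM in young round spermatids, against 4386 CPM in aged and 3900 CPM in young spermatocytes. The 10 spermatogonial markers, of which 1 reached 50 CPM in the aged class, summed to 904 CPM in aged and 981 CPM in young round spermatids, against 1299 CPM in aged and 1480 CPM in young spermatocytes. The 14 markers of elongating spermatids summed to 6504 CPM in aged and 6300 CPM in young round spermatids, against 46821 CPM and 54034 CPM in the aged and young cells with at least 0.3% protamine and transition protein counts, called protamine spermatids here.

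Transcripts of somatic cells were low in the class but not at 0. The 13 Leydig cell markers summed to 110 CPM in aged and 336 CPM in young round spermatids, which is 3.83% of their level over the whole aged library and 3.20% of that over the whole young one. Cells at or over the Leydig gene limit, called Leydig marker cells here, numbered 535 in the aged and 1157 in the young library. These 2 shares were used to estimate free RNA, which was subtracted in an alternative as that share of counts with the profile of the whole library. The 4 Leydig genes of the rule are among the 13 markers. Their low sum was thus set in part by the rule, and the estimate rests on it. The 11 Sertoli cell markers summed to 17.9 CPM in aged and 42.2 CPM in young round spermatids, with 2 aged and 1 young at 0. The 10 macrophage markers summed to 11.3 CPM in aged and 30.6 CPM in young round spermatids, and the 9 fibroblast and peritubular markers to 6.42 CPM and 24.4 CPM, where the whole libraries were at 107 CPM and 97.7 CPM. The 6 endothelial markers were close in both, at 29.2 CPM in aged and 32.1 CPM in young round spermatids, which is near their level over each whole library. Erythroid genes were at 0 in the aged and at 0.390 CPM in the young cells.

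Few cells sat near the limits. A protamine and transition protein share of 0.25% to 0.3% was found in 15 aged and 16 young round spermatids, with medians of 0.266% and 0.276%. Just outside, at 0.3% to 0.35%, were 16 aged and 13 young cells, with medians of 0.319% and 0.325%. The acrosomal sum exceeded the meiotic sum by only 1 to 3 counts in 28 aged and 18 young round spermatids, and 33 aged and 5 young cells outside the class fell short by 0 to 2 counts.

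**Figure D1:**
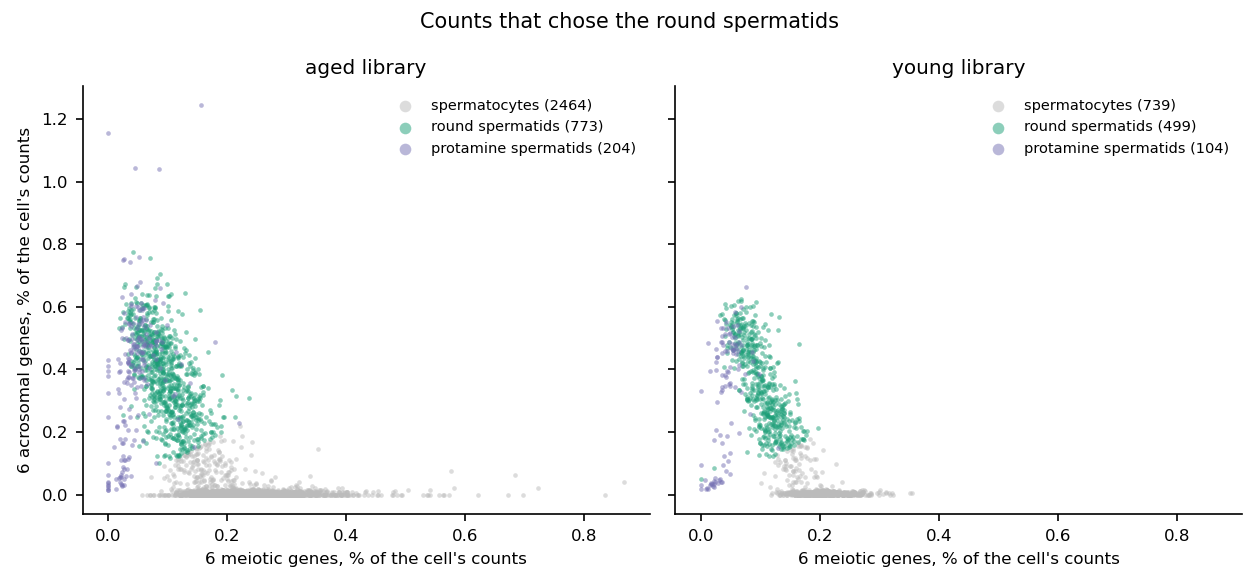
Each point is a cell, with the share of its counts from the 6 meiotic genes on the x axis and from the 6 acrosomal genes on the y axis, both in percent, for the aged (left) and young (right) library. The 773 aged and 499 young round spermatids lie above the 2464 aged and 739 young spermatocytes, as the rule requires, and the 204 aged and 104 young protamine spermatids overlap them in acrosomal share.

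The acrosomal genes of the rule were at high levels in the class, near 0 in spermatocytes and still present in protamine spermatids. Acrv1, which encodes the acrosomal vesicle protein SP-10 (GRCm38 chromosome 9, 36693220 to 36698843), was at 959 CPM in aged and 916 CPM in young round spermatids, against 26.1 CPM and 38.0 CPM in aged and young spermatocytes and 1148 CPM and 1069 CPM in aged and young protamine spermatids. Spaca1, an acrosomal membrane protein needed to shape the acrosome (chromosome 4, 34024874 to 34050191), was at 854 CPM in aged and 731 CPM in young round spermatids. Lyzl6, a lysozyme-like sperm protein, was at 743 CPM in aged and 645 CPM in young round spermatids, Spaca3, another lysozyme-like acrosomal protein, at 505 CPM and 516 CPM, and Tex36 at 493 CPM and 458 CPM. Spaca7, an acrosomal protein, was lowest of the 6 in counts, at 245 CPM in aged and 222 CPM in young round spermatids. The levels of the 6 in aged and young cells thus lay within 1.17-fold of each other.

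With every cell thinned to 3000 counts, Acrv1 was seen in 91.8% of aged and 91.4% of young round spermatids. Leydig marker cells, which should lack it, gave 6.36% in the aged and 8.04% in the young library at that depth. Spaca1 was seen in 90.4% of aged and 85.6% of young round spermatids, against 2.43% and 5.96% of aged and young Leydig marker cells. Both genes are in the rule, so these shares describe the chosen cells and test nothing.

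Of 2029 genes with at least 100 CPM in round spermatids of both libraries, 58 were at least 2-fold above both spermatocytes and protamine spermatids in both, and 138 at least 1.5-fold. Each of these genes peaks between the neighbouring stages instead of continuing into the protamine phase. Smco4, a small membrane protein gene (chromosome 9, 15493432 to 15545260), stood furthest above its neighbours: it was at 266 CPM in aged and 275 CPM in young round spermatids, 10.8 CPM and 16.03 CPM in aged and young spermatocytes, and 17.9 CPM and 23.8 CPM in aged and young protamine spermatids. Prss46, a serine protease gene (chromosome 9, 110844506 to 110856522), was at 423 CPM in aged and 430.4 CPM in young round spermatids, against 55.2 CPM and 76.5 CPM in spermatocytes and 46.2 CPM and 62.8 CPM in protamine spermatids of the aged and young library.

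Genes of cilium and tail assembly were among the 20 furthest above both neighbours. Foxj1, the transcription factor of motile cilia (chromosome 11, 116330704 to 116335399), was at 252 CPM in aged and 274 CPM in young round spermatids, 20.8 CPM and 31.1 CPM in spermatocytes, and 48.9 CPM and 48.8 CPM in protamine spermatids. Fsip1, a fibrous sheath interacting protein, was at 474 CPM in aged and 449 CPM in young round spermatids, 8.61-fold and 6.43-fold above spermatocytes of the same library. Cfap58, a protein of the sperm flagellum, was at 278 CPM in aged and 284 CPM in young round spermatids, 3.39-fold and 2.91-fold above protamine spermatids. Iqca, named for its IQ and AAA domains, was at 115 CPM in aged and 127 CPM in young round spermatids and at 10.6 CPM and 14.8 CPM in spermatocytes.

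Other genes of the 20 act in the nucleus or at membranes. Nrm encodes nurim of the inner nuclear membrane and was at 457 CPM in aged and 443 CPM in young round spermatids, 24.2-fold and 17.9-fold above spermatocytes. Nutm1, a testis gene whose product binds the acetyltransferase p300, was at 109 CPM in aged and 111 CPM in young round spermatids, against 6.95 CPM and 10.3 CPM in spermatocytes. Tex15, known for its part in meiotic recombination and transposon silencing in mice, was 20.7-fold (aged) and 17.7-fold (young) above spermatocytes, at 302 CPM in aged and 284 CPM in young round spermatids. Il31, which encodes a cytokine, was at 239 CPM in aged and 226 CPM in young round spermatids and at 9.28 CPM and 11.4 CPM in spermatocytes. Fer1l5, of the ferlin family, was at 206 CPM in aged and 143 CPM in young round spermatids and differed most between the ages among these 20, by a ratio of 1.43 (1.35 to 1.52).

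The genes with the most counts in the class were shared with spermatocytes. Morf4l1, a chromatin protein, was at 4558 CPM in aged and 4340.1 CPM in young round spermatids and at 5349 CPM and 5059 CPM in spermatocytes. Ybx2 and Ybx3, Y-box proteins that bind stored mRNA, were at 4244 CPM and 4109.9 CPM in aged and at 3884 CPM and 4043 CPM in young round spermatids. Pabpc1, the cytoplasmic poly(A)-binding protein, Ldhc, the testis lactate dehydrogenase, Meig1, which acts at the manchette, Ropn1l, of the fibrous sheath and radial spokes, and Mael, of the piRNA pathway, completed the 8 with the most counts. Ldhc was at 3281 CPM in aged and 3773 CPM in young round spermatids.

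Lists of genes grouped by role were counted over members with at least 50 counts in the 2 libraries together. Over all 13477 such genes, 37.0% were at least 1.5-fold higher in round spermatids than in spermatocytes in both libraries and 27.8% at least 1.5-fold lower. Against protamine spermatids 42.0% were higher and 15.8% lower. Of 30 genes of acrosome formation and content, the rule's own genes left out, 16 were higher and 3 lower than in spermatocytes. Acr, the acrosomal protease acrosin, was at 708 CPM in aged and 698 CPM in young round spermatids and already at 485 CPM and 542 CPM in spermatocytes. Spaca4, an acrosomal membrane protein, was at 276 CPM in aged and 251 CPM in young round spermatids, 42.4-fold and 25.9-fold above spermatocytes. Of 23 genes of sperm-egg adhesion and fusion 14 were higher and 3 lower, among them Izumo1, the fusion protein of the sperm head, at 147 CPM in aged and 137 CPM in young round spermatids and 4.44 CPM and 6.49 CPM in spermatocytes.

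Genes of the outer dense fibres and fibrous sheath, which wrap the tail axoneme, were far above spermatocytes but below protamine spermatids. Of 19 measured, 14 were higher and 0 lower than in spermatocytes, and 1 was higher and 11 lower than in protamine spermatids. Odf1, a protein of the outer dense fibres (chromosome 15, 38219203 to 38226735), was at 1416 CPM in aged and 1379 CPM in young round spermatids, 37.8 CPM and 69.7 CPM in spermatocytes, and 3202 CPM and 3469 CPM in protamine spermatids. Of 49 genes of the axoneme itself, 35 were higher and 2 lower than in protamine spermatids, while 13 were higher and 18 lower than in spermatocytes. Rsph1, a radial spoke protein, was at 649.9 CPM in aged and 780.0 CPM in young round spermatids, 2079 CPM and 2101 CPM in spermatocytes, and 209.8 CPM and 183 CPM in protamine spermatids.

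Of 24 genes of CREM and spermatid transcription, 15 were higher and 2 lower than in spermatocytes. Crem itself was at 545 CPM in aged and 552 CPM in young round spermatids, 2.23-fold and 2.01-fold above spermatocytes. Fhl5, the testis coactivator of CREM also called ACT, was at 272 CPM in aged and 206 CPM in young round spermatids and at 3.37 CPM and 4.98 CPM in spermatocytes. Rfx2, the X-box factor, was at 506 CPM in aged and 507 CPM in young round spermatids, within 1.08-fold of spermatocytes. Sox30, a factor that mouse round spermatids need, was at 144 CPM in aged and 136 CPM in young cells. Genes of mRNA splicing and export ran the other way, with 4 of 30 higher and 19 lower than in spermatocytes. Of 76 ribosomal protein genes 0 were higher and 13 lower in both libraries, smaller shares in both directions than over all genes. Their median log2 ratio to spermatocytes was nonetheless -0.62 in aged and -0.27 in young cells, against -0.03 and -0.01 over all genes.

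Energy, ubiquitin and histone genes differed from spermatocytes gene by gene. Of 22 genes of testis glycolysis, 12 were higher and 3 lower: Gapdhs, the sperm glyceraldehyde-3-phosphate dehydrogenase, was at 868 CPM in aged and 799.5 CPM in young round spermatids and at 25.3 CPM and 47.1 CPM in spermatocytes. Of 40 genes of ubiquitin and the proteasome, 19 were higher and 6 lower. Of 17 spermatid histone genes, 7 were higher and 9 lower, and the histone H3.3 gene H3f3b was at 1153 CPM in aged and 1034 CPM in young round spermatids. Phf7, a histone ubiquitin ligase of mouse spermatids, was at 2530.3 CPM in aged and 2642 CPM in young round spermatids, close to spermatocytes at 2683 CPM and 2734 CPM. The remaining counts of higher and lower members were 10 and 16 of 37 for histone removal, 14 and 4 of 35 for spermatid kinases and phosphatases, 11 and 6 of 30 for the manchette, 10 and 10 of 25 for CatSper and sperm ion channels, and 6 and 10 of 32 for the chromatoid body. Catsper1, a pore subunit of the sperm calcium channel, was at 219 CPM in aged and 205 CPM in young round spermatids and at 6.05 CPM and 9.74 CPM in spermatocytes. Heat shock genes had 9 higher and 8 lower of 35, mitochondrial isoforms 7 and 6 of 26, antioxidant genes 4 and 5 of 21, DNA damage genes 6 and 11 of 23, and immediate early genes 7 and 1 of 15.

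Cells of the class were ordered by a stage index, the counts of 24 late genes as a share of the counts of 24 late and 20 early genes. The early list holds transcripts carried over from meiosis, such as Hspa2 and Hist1h1t, and the late list genes of the coming elongation, such as the Tssk kinases, Akap4 and Odf1. The median index was 0.212 in aged and 0.232 in young spermatocytes, 0.427 in aged and 0.408 in young round spermatids, and 0.652 in aged and 0.666 in young protamine spermatids. Round spermatids of both libraries together were then split at 0.379 and 0.475 into 3 groups of equal size, called early, middle and late cells. The early, middle and late groups held 233, 271 and 269 aged cells and 191, 153 and 155 young cells. The early group held 30.1% (26.9 to 33.5) of aged and 38.3% (34.0 to 42.7) of young cells, so the chosen young cells leaned to earlier stages. The median protamine and transition protein share of early cells was 0.0188% in aged and 0.0475% in young. The limit of 0.3% acts on this share, and its part in the lean was not tested.

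The index lists fix their own direction: 22 of the 24 late genes were higher and 17 of the 20 early genes lower in late than in early cells in both libraries. Calr3, a testis calreticulin of the early list, went against it, at 1.55, 6.45 and 70.0 CPM in early, middle and late cells of the aged library and 2.85, 6.71 and 55.8 CPM in those of the young. Cox8c, a cytochrome oxidase subunit of the late list, was at 1353, 1057 and 659 CPM in aged and 1474, 1228 and 700.5 CPM in young cells. Over all 13477 genes, 21.4% were at least 1.5-fold higher in late than in early cells in both libraries and 30.0% lower. Of the 2415 genes with 100 CPM or more in the higher of these groups, 97.6% went the same way in both libraries. Of 30 acrosome genes 15 were higher and 3 lower in late cells, and of 49 axoneme genes 3 were higher and 18 lower. The 16 genes named next are on neither list of the index.

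The genes furthest higher in late cells were close to absent in early ones. Tmem144, a multi-pass membrane protein (chromosome 3, 79812564 to 79852773), was at 1.81, 9.56 and 218 CPM in early, middle and late cells of the aged library and 4.36, 6.91 and 168 CPM in those of the young. Saxo1, a stabiliser of axonemal microtubules (chromosome 4, 86444641 to 86558328), was at 2.07, 22.5 and 203 CPM in aged and 2.18, 10.2 and 178 CPM in young cells. Dnajb7, a co-chaperone of the Hsp40 family, was at 4.66, 46.7 and 239 CPM in aged and 5.37, 32.1 and 217 CPM in young cells. Each of these was higher still in protamine spermatids, where Tmem144 reached 647 CPM in aged and 536 CPM in young cells. Cct8l1, Adam6a, Tepp, Banf2 and Spata31d1d went the same way, by 41.6-fold to 113-fold in aged and 42.2-fold to 88.4-fold in young cells.

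Genes with the lowest levels in late relative to early cells were high in spermatocytes. Hspa5, the endoplasmic reticulum chaperone BiP (chromosome 2, 34771970 to 34777547), was at 819 CPM in aged and 962 CPM in young spermatocytes, 607, 267 and 68.9 CPM in early, middle and late aged round spermatids, and 686, 352 and 90.3 CPM in young ones. Pabpc6, a poly(A)-binding protein gene, was at 368, 122 and 49.6 CPM in early, middle and late aged cells and 442, 176 and 45.2 CPM in young cells. Stmn1, the microtubule-destabilising protein stathmin, was at 266, 123 and 36.3 CPM in aged and 267, 145 and 31.7 CPM in young cells. Wbp2, a WW domain binding protein, was at 570.0, 214 and 69.3 CPM in aged and 572, 268 and 64.9 CPM in young cells. Yipf5 of the early secretory path, Pxt1, the dynein intermediate chain gene Dnaic2 and the ribosome biogenesis gene Bms1 were 7.47-fold to 8.25-fold lower in late cells in aged and 6.93-fold to 9.73-fold lower in the young library.

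Of the 20 genes furthest above both neighbouring classes, 13 had their highest level in middle cells in both libraries, 3 in early cells and 1 in late cells, and in 3 the libraries differed. The gene highest in late cells was Il31, at 165, 253 and 286 CPM in early, middle and late aged cells and 145, 244 and 312 CPM in young cells. Smco4 was at 275, 341 and 185 CPM in early, middle and late aged cells and 257, 352 and 213 CPM in young cells, with its peak in middle cells. Prss46 was at 478, 525 and 277 CPM in aged and 466, 518 and 289 CPM in young cells. The acrosomal Acrv1 was higher in each later group, at 593, 939 and 1287 CPM in aged and 590.5, 903 and 1361 CPM in young cells.

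**Figure D2:**
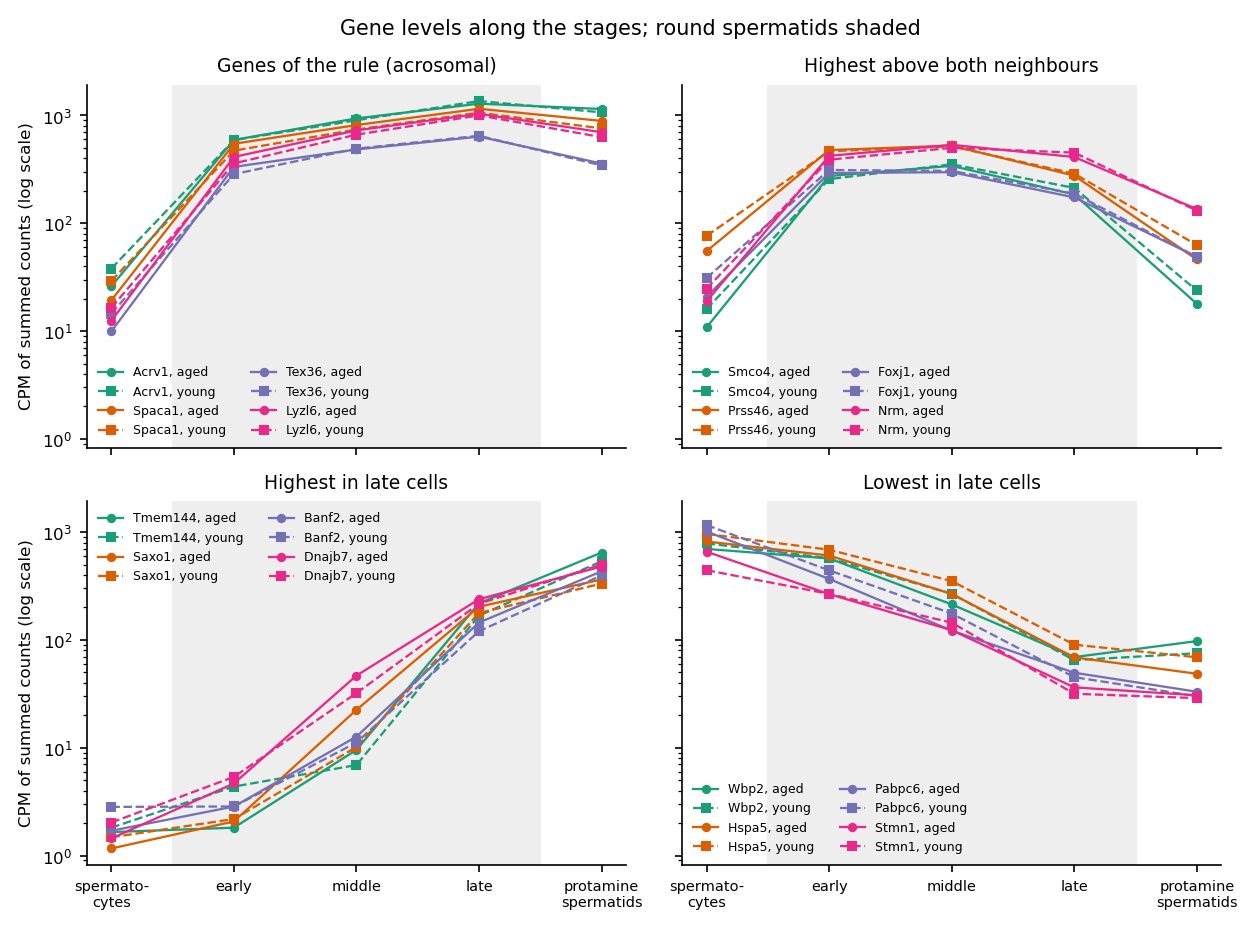
Level in CPM (log axis) from spermatocytes through early, middle and late round spermatids (shaded) to protamine spermatids for 16 genes in 4 panels, aged as solid lines with circles and young as dashed lines with squares. Acrv1 is higher in each later shaded stage, Smco4 peaks inside them at 341 CPM in aged and 352 CPM in young cells, Tmem144 and Saxo1 are near the bottom until the late group, and Hspa5 and Stmn1 are lower in each later group.

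The sex chromosomes, which the rule did not use, gave a larger share of counts in round spermatids than in spermatocytes. X-linked genes made up 0.916% of counts in aged and 0.857% in young round spermatids, against 0.0872% in aged and 0.106% in young spermatocytes, 10.5-fold and 8.12-fold. Protamine spermatids were at 1.53% in both libraries. The share was 0.659%, 0.845% and 1.202% in early, middle and late cells of the aged library and 0.641%, 0.817% and 1.19% in those of the young. The late list that cut these groups holds the X-linked Akap4, at 245 CPM in early and 928 CPM in late aged cells. Part of this order was thus set by the index. Y-linked genes made up 0.0624% of counts in aged and 0.0639% in young round spermatids, against 0.00986% and 0.00945% in spermatocytes, 6.33-fold and 6.76-fold. The autosomes differed far less: the ratio of round spermatids to spermatocytes lay between 0.863 and 1.15 in aged cells for each of them.

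Single genes showed the same order. Tsga8, an X-linked spermatid nuclear protein gene (chromosome X, 83486678 to 83487924), was at 723 CPM in aged and 701 CPM in young round spermatids and at 35.1 CPM and 52.8 CPM in spermatocytes. Akap4, the anchoring protein of the fibrous sheath (chromosome X, 7067519 to 7078609), was at 586 CPM in aged and 531 CPM in young round spermatids and at 10.98 CPM and 19.3 CPM in spermatocytes, and it is on the late list. Cul4b, a scaffold of ubiquitin ligases, was at 132 CPM in aged and 123 CPM in young round spermatids and at 6.21 CPM and 7.93 CPM in spermatocytes. On the Y chromosome Eif2s3y, a translation initiation factor subunit, was at 60.6 CPM in aged and 54.8 CPM in young round spermatids, and Zfy2, a zinc finger factor, at 11.2 CPM and 9.29 CPM. Of 21 measured multicopy sex-linked spermatid genes, 20 were higher and 1 was lower than in spermatocytes.

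Haploid spermatids carry either an X or a Y but are joined by cytoplasmic bridges through which transcripts are shared. With each cell thinned to 3000 counts, 84.6% of aged (654 cells) and 83.4% of young (416 cells) round spermatids had at least 1 count from each sex chromosome. Tsga8 counts had a variance over mean of 1.08 in aged and 1.22 in young cells, near the value of 1 that counting alone gives, and Cul4b had 1.05 and 1.02. The X-linked Akap4 had 1.74 in aged and 1.49 in young cells. The summed X-linked counts had 3.52 and 3.73, and their share differs between the stage groups. The free RNA estimate was 3.83% of counts in aged and 3.20% in young cells, and 9 aged and 5 young round spermatids were called doublets. The part of either in these shares was not tested.

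Mitochondrially encoded transcripts ran opposite to X-linked ones. They made up 0.176% of counts in aged and 0.222% in young round spermatids, against 0.658% and 0.541% in aged and young spermatocytes. In early, middle and late cells the share was 0.316%, 0.172% and 0.0603% in aged and 0.360%, 0.185% and 0.0797% in young cells. The cells varied beyond counting error in these transcripts: mt-Cytb, cytochrome b, had a variance over mean of 5.07 in aged and 2.30 in young cells after thinning. Actg1, the cytoplasmic gamma-actin gene, had 2.51 and 2.17.

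**Figure D3:**
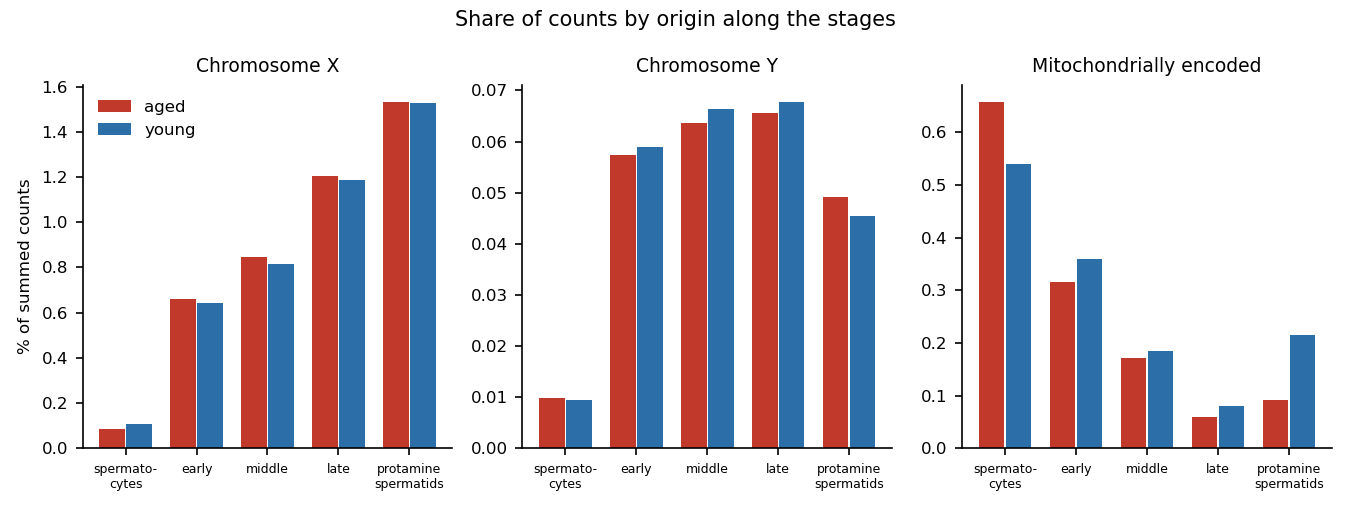
Share of summed counts in percent from chromosome X (left), chromosome Y (middle) and the mitochondrial genome (right) from spermatocytes through early, middle and late round spermatids to protamine spermatids, with bars for the aged (red) and young (blue) library and axes from 0. The X-linked share is 1.202% in aged and 1.19% in young late cells, where the mitochondrial share is 0.0603% and 0.0797%.

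Most genes were at close levels in aged and young round spermatids. Of 4050 genes with at least 50 CPM in the library where they were higher, 88.8% lay within 1.2-fold, the standard deviation of their log2 ratio of aged over young was 0.20, and 18 (0.444%) were at least 1.5-fold higher and 11 (0.272%) at least 1.5-fold lower in aged cells. Over all 13477 genes with 50 or more counts, 475 (3.52%) were at least 1.5-fold higher and 394 (2.92%) lower. The median log2 ratio of the 4050 was -0.01. The mix of stages, the depth per cell and the free RNA differed between the libraries, as given above.

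The genes furthest above in aged cells were mostly genes of the later groups. Iqca1l, for which the GENCODE M21 annotation gave no locus by this name, was at 497 CPM in aged and 316 CPM in young round spermatids, a ratio of 1.58 (1.52 to 1.64), and at 5.60 CPM and 6.37 CPM in spermatocytes. Rnf168, a ubiquitin ligase that marks histone H2A at DNA breaks (chromosome 16, 32277459 to 32301434), was at 57.4 CPM in aged and 35.2 CPM in young cells, a ratio of 1.63 (1.46 to 1.82). Cldnd2, a claudin domain protein, was at 150.5 CPM in aged and 98.8 CPM in young cells. Within stage groups, 7 of the 10 genes named had a smaller ratio in late than in early cells: Iqca1l had ratios of 1.94, 1.59 and 1.245 in early, middle and late cells, Rnf168 of 1.85, 1.83 and 1.27, and Cldnd2 of 1.82, 1.51 and 1.23. Among the others, Fam227a had ratios of 1.31, 1.49 and 1.49, Mroh5 of 1.16, 1.72 and 1.30 and Tmem144 of 0.416, 1.38 and 1.30. Over the 10 genes named, 9 were at least 1.5-fold higher in late than in early cells in both libraries, the exception being Msi1. With the stage groups given equal weight in both libraries, an alternative chosen after the data had been seen, only 2 genes of 50 CPM or more were at least 1.5-fold higher in aged cells, against 18. The ratios themselves moved less, and those of the 10 genes named lay between 1.28 and 1.58 under equal weight, among them Rnf168 at 1.48 and Iqca1l at 1.42.

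Msi1, the RNA-binding protein Musashi (chromosome 5, 115429599 to 115455698), was the exception among these 10 in its course over the stages. It was at 61.1 CPM in aged and 38.9 CPM in young round spermatids, a ratio of 1.57 (1.41 to 1.75), with ratios of 1.64, 1.67 and 1.43 in early, middle and late cells. Its level was also higher in aged spermatocytes, at 65.8 CPM against 45.8 CPM in young. The other members of the 10 were Fam227a at 53.4 CPM in aged and 33.1 CPM in young cells, Mroh5 at 76.0 CPM and 48.8 CPM, Wbscr25 at 111 CPM and 71.6 CPM, Tmem144 at 81.1 CPM and 53.2 CPM, Vps37b, a subunit of the ESCRT-I complex, at 54.3 CPM and 35.7 CPM, and Nrgn, the calmodulin-binding neurogranin, at 88.3 CPM and 59.0 CPM.

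Aldh1l1, the folate enzyme 10-formyltetrahydrofolate dehydrogenase (chromosome 6, 90486427 to 90600203), differed more than any other gene of 50 CPM or more. It had 30 counts (2.32 CPM, 1.57 to 3.31) in aged and 1291 counts (83.8 CPM, 79.3 to 88.5) in young round spermatids, a ratio of 0.0277 (0.0186 to 0.0397). The same held in spermatocytes, at 0.302 CPM in aged and 91.4 CPM in young, and in protamine spermatids, at 4.82 CPM and 59.3 CPM. In Leydig marker cells it was at 386 CPM in aged and 403 CPM in young. After thinning to 3000 counts it was seen in 1.03% of aged and 18.8% of young round spermatids. With free RNA subtracted, the levels in round spermatids were 1.58 CPM in aged and 82.1 CPM in young.

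A few other genes were lower in aged cells in each stage group. Ide, the insulin-degrading enzyme (chromosome 19, 37268743 to 37337852), was at 279 CPM in aged and 434 CPM in young round spermatids, a ratio of 0.643 (0.617 to 0.669), and at 342 CPM and 586 CPM in spermatocytes. Its ratio was 0.642, 0.672 and 0.660 in early, middle and late cells. Tmem267, a membrane protein gene (chromosome 13, 119488039 to 119611059), was at 216 CPM in aged and 333 CPM in young round spermatids, a ratio of 0.649 (0.619 to 0.679), and 0.632, 0.677 and 0.674 in early, middle and late cells. Osbpl1a, an oxysterol-binding protein, was at 45.1 CPM in aged and 92.4 CPM in young cells, a ratio of 0.488 (0.442 to 0.538), and its ratio was 0.429 in early and 0.762 in late cells. In protamine spermatids Osbpl1a was at 132 CPM in aged and 135 CPM in young, so the libraries differed little there.

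The other 6 genes named lowest did not reach 1.5-fold. Pdcd10, a partner of germinal centre kinases, was at 46.5 CPM in aged and 64.9 CPM in young cells, and Mindy4, a deubiquitinase, at 49.1 CPM and 68.0 CPM. Aurka, a mitotic and meiotic kinase on the early list, was at 139.6 CPM in aged and 189 CPM in young cells, with ratios of 0.857, 0.737 and 1.07 in early, middle and late cells. Mapk8ip2, a scaffold of JNK signalling, Ghrl, the ghrelin precursor, and Med15, a Mediator subunit, had ratios of 0.741 (0.671 to 0.818), 0.742 (0.686 to 0.803) and 0.743 (0.667 to 0.827).

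**Figure D4:**
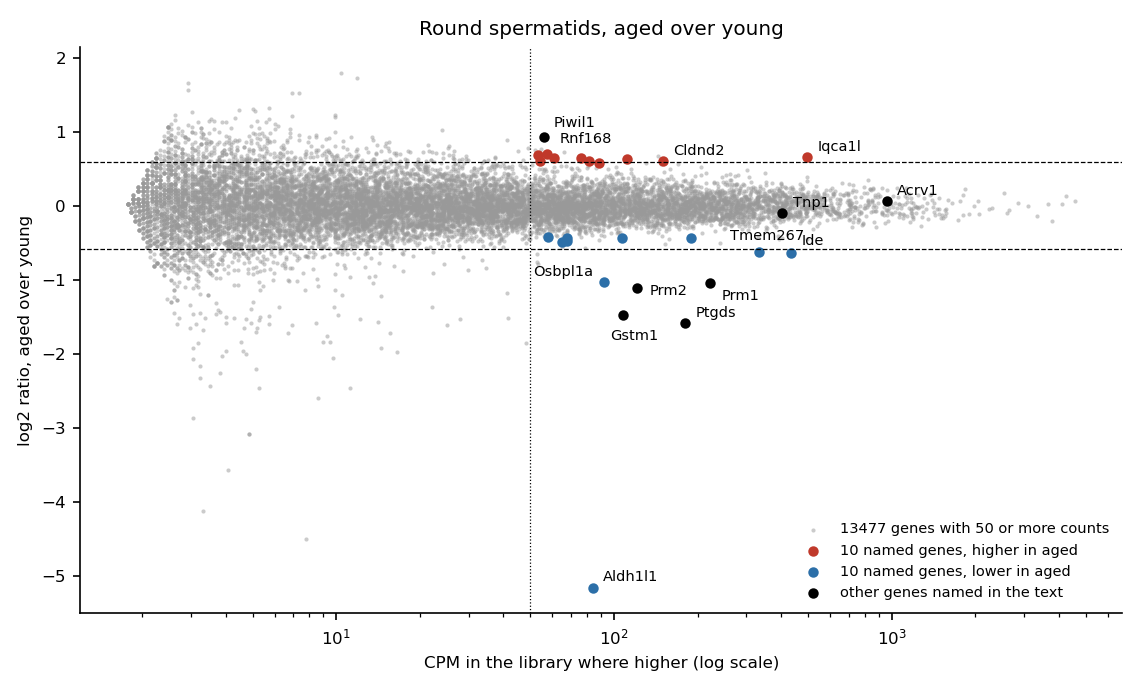
Log2 ratio of aged over young in round spermatids against the CPM in the library where the gene is higher (log axis), for 13477 genes, with dashed lines at 1.5-fold and a dotted line at 50 CPM. Red and blue points are the 10 genes named as higher and the 10 as lower in aged cells; Aldh1l1 lies alone near -5.15, and Prm1, Prm2, Ptgds and Gstm1 (black) lie below the dashed line.

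The protamine genes of the rule were lower in aged round spermatids, and so were Leydig cell transcripts. Prm1 was at 107 CPM in aged and 221 CPM in young round spermatids and Prm2 at 56.1 CPM and 121 CPM, while Tnp1 was at 377 CPM and 404 CPM and Tnp2 at 111 CPM and 144 CPM. Prm1 was lower also in aged spermatocytes, at 51.5 CPM against 144 CPM in young, a stage before protamine transcription begins. With free RNA subtracted, Prm1 was at 49.1 CPM in aged and 143 CPM in young round spermatids. Ptgds, a Leydig cell gene of the rule, was at 60.1 CPM in aged and 180.0 CPM in young round spermatids. Leydig marker cells, which were chosen in part by Ptgds itself, had 23190 CPM in aged and 25353 CPM in young. Gstm1 was at 38.7 CPM in aged and 108 CPM in young round spermatids. With free RNA subtracted, Gstm1 was at 0 in both, and Ptgds at 12.2 CPM in aged and 42.9 CPM in young. Of the 13 Leydig markers, all 10 with 50 or more counts were at least 1.5-fold lower in aged round spermatids. Over all genes with 50 or more counts, 2.92% were lower. Leydig genes of the rule are among the 13, so this count is a description. Whether free RNA gives the whole of these differences was not tested.

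Piwil1, the PIWI protein of pachytene piRNAs and a spermatocyte marker, was at 55.8 CPM in aged and 29.4 CPM in young round spermatids, a ratio of 1.90 (1.69 to 2.14). It was at 807 CPM in aged and 381 CPM in young spermatocytes, so it was higher in the aged library in the class that holds most of it. With free RNA subtracted it was at 34.0 CPM in aged and 24.1 CPM in young round spermatids. Tdrd5, a Tudor protein of the same pathway, was at 8.43 CPM in aged and 4.35 CPM in young round spermatids and at 155 CPM and 61.2 CPM in spermatocytes. These, with Ago2, were the only 3 of 32 genes of the chromatoid body and mRNA storage past 1.5-fold, and the median log2 ratio of that list was 0.07. All 3 were higher, as were 3.52% of all genes with 50 or more counts.

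Gene lists of spermatid function lay close to equality between the ages. The median log2 ratio was 0.02 over 30 genes of acrosome formation and content, 0.00 over 30 of the manchette and head shaping, -0.01 over 49 of the axoneme, 0.12 over 19 of the outer dense fibres and fibrous sheath, 0.02 over 25 of CatSper and other sperm ion channels, 0.02 over 22 of testis glycolysis, 0.02 over 35 spermatid kinases and phosphatases, and 0.08 over 21 multicopy sex-linked genes. No member of these 8 lists was 1.5-fold higher or lower. Over all genes with 50 or more counts 3.52% were higher and 2.92% lower. Among the 4050 genes of 50 CPM or more these shares were only 0.444% and 0.272%, so few members past 1.5-fold would be found in any abundant list. In the lists of sperm-egg adhesion and fusion (median 0.14), CREM and spermatid transcription (0.06), spermatid histones (0.07) and histone removal (0.03), 1 member each was higher in aged cells: Tpst2, Taf4b, Hist2h2be and Rnf168. Crem had a log2 ratio of -0.02, Odf1 of 0.04 and Acr of 0.02.

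Members past 1.5-fold in the other lists were mostly at low levels. Beside the counts below, 3.52% of all genes with 50 or more counts were higher and 2.92% lower. In mRNA splicing and export 3 of 30 were higher: U2af2, a subunit of the splicing factor that reads the 3′ splice site, at 25.4 CPM in aged and 14.7 CPM in young cells, Rnps1 at 5.34 CPM and 3.12 CPM, and Alyref, an mRNA export adaptor, at 5.10 CPM and 2.08 CPM, with a list median of 0.07. In the list of mitochondrial isoforms 3 of 26 were lower, among them Cox7b at 1.01 CPM in aged and 2.47 CPM in young cells, with a list median of -0.17. In the antioxidant list 3 of 21 were lower. Gpx1 was at 1.16 CPM in aged and 4.74 CPM in young cells, and Prdx2 at 3.32 CPM and 6.75 CPM. Gstm1 was the other, and it was at 0 in both libraries with free RNA subtracted. Of 76 ribosomal protein genes 2 were lower and 0 higher, with a median of -0.10. Psma7, a proteasome subunit, was the only gene past the limit among 40 of ubiquitin and the proteasome (median 0.05), and Gadd45g among 23 of DNA damage and apoptosis (median 0.00). None of 35 heat shock and chaperone genes was past it (median -0.05).

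The list of immediate early and dissociation genes stood apart, with 10 of 15 members lower in aged cells and a median log2 ratio of -0.90. The share lower over all genes with 50 or more counts was 2.92%. Jun was at 6.57 CPM in aged and 13.6 CPM in young cells, Fos at 2.01 CPM and 5.72 CPM, Egr1 at 7.11 CPM and 13.8 CPM, and Atf3 at 0.541 CPM and 4.87 CPM. All 4 are transcription factors induced within minutes of stress. Members at high levels in the class did not share this: Klf4, a factor that round spermatids express, was at 483 CPM in aged and 453 CPM in young cells, and Btg1 at 182 CPM and 186 CPM. With free RNA subtracted the median over the 10 members left was -0.20, and Fos was at 0 in both libraries. Within the stage groups the median was -0.84, -0.09 and -0.26, and with cells thinned to 3000 counts it was -0.27, over 11, 9, 9 and 8 members. As a mean over cells of each cell's CPM it was larger in size, at -1.32 over 16 members. Leydig markers moved the same way, and their part beyond this subtraction was not tested.

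**Figure D5:**
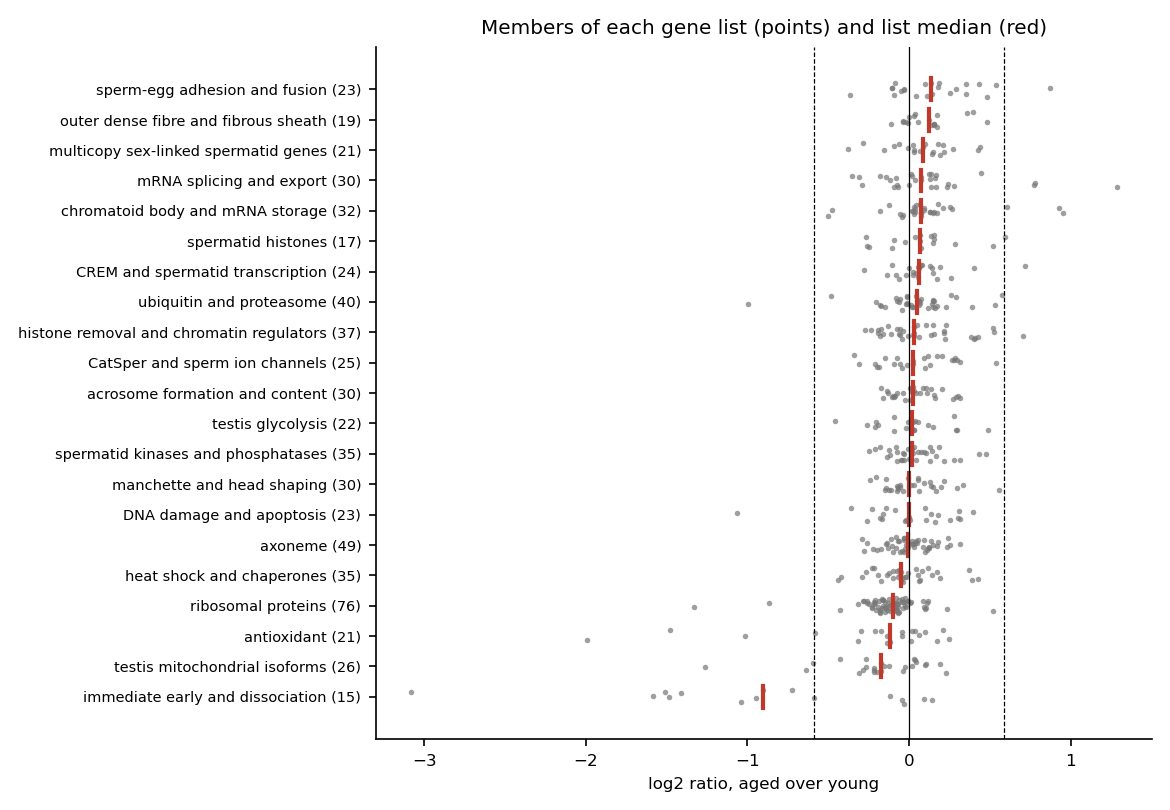
Log2 ratio of aged over young in round spermatids for each measured member (grey points) and the median (red bar) of 21 gene lists, with the number of members in brackets and dashed lines at 1.5-fold. Medians lie between -0.17 and 0.14 except that of the immediate early and dissociation genes, at -0.90.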

How the data were processed

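Single-cell RNA counts of 2 testis libraries, 1 aged and 1 young, were used. The authors deposited a table of raw counts, whole numbers for each gene in each cell, for each library. Per the file headers, the aged table came from version 1.7.1 of the BD Rhapsody pipeline with an index named for STAR 2.5.2b, and the young table carries none. Per the submitters' processing notes, Cell Ranger 2.11 and mm10 were used. The sources thus name different pipelines, and how cells were called and whether a count stands for a molecule are not given in the sources used here. Coordinates were looked up by name in GENCODE M21, which held 98.5% of gene names.

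Counts were summed over cells of a class and library and scaled to CPM. Ratios used 0.5 added to each count on the log2 scale. Spermatocytes passed the same limits on total, mitochondrial, Leydig and protamine shares, with a meiotic sum of at least 3 and at least the acrosomal sum; protamine spermatids had a protamine share of 0.3% or more and an acrosomal sum above the meiotic. The scripts (Python 3.11.15, scipy 1.17.1, pandas 2.3.3) were tested on simulated data. Scrublet in scanpy 1.11.5 called 123 of 5812 aged and 36 of 2770 young cells doublets; they were removed in an alternative only.

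The members and gene lists were chosen with earlier results of these data known. Named by rule were the 10 genes highest and 10 lowest in aged over young (50 counts, 50 CPM where higher, at least 0.5 times the level in all other cells, no gene models, mitochondrial, ribosomal or globin genes), the 20 highest above both neighbouring classes, 8 each way between early and late cells, the 8 with most counts, list members furthest from equality or most abundant, the genes of the rule, markers and Aldh1l1. Alternatives changed the limits, doublets, depth, scaling, free RNA, stages and count minimum.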

Additional observations from a re-analysis of the deposited data

Results flagged for a closer look

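Mroh5 and Wbscr25 went in opposite directions between the ages in round spermatids and in spermatocytes. Mroh5 had a log2 ratio of aged over young of 0.64 in round spermatids, at 76.0 CPM in aged and 48.8 CPM in young, and of -0.59 in spermatocytes, at 1.77 CPM and 2.66 CPM. Wbscr25 had a log2 ratio of 0.64 in round spermatids, at 111 CPM in aged and 71.6 CPM in young, and of -0.34 in spermatocytes, at 6.67 CPM and 8.44 CPM. With 1 library per age the difference between the classes was not tested.

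A group of 115 cells of the aged library met every limit of the class but the lowest total, and the young library had 0 such cells. Their median total was 1458 counts, their median mitochondrial share 0.486% and their median acrosomal sum 7 counts. They were left out of all values above.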

How the results depend on the processing

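No paired analysis was possible because each group has 1 library, so leaving out a replicate was not run either. The number of round spermatids kept its value within 1.5 times in all 10 values from alternative choices of cells, with each library counted apart. Without any change, 475 genes were at least 1.5-fold higher and 394 lower in aged cells, of 13477. A protamine share under 0.1% gave 773 of 12334 genes higher, 69 of them of 50 CPM or more. The list medians there were 0.11 for acrosome, 0.20 for outer dense fibre and fibrous sheath and 0.19 for multicopy sex-linked genes. Thinning to 3000 counts gave 271 higher and 196 lower of 7508 genes. Of 50 CPM or more it gave 45 and 30, and the median for kinases was -0.039. Early cells alone gave 241 of 10020 genes lower, and 10 higher of 50 CPM or more. Their medians were -0.011 for outer dense fibres and -0.069 for ribosomal proteins, and Tmem144 had a log2 ratio of -1.19 instead of 0.61. Middle cells gave 0.055 for the axoneme. Late cells gave 283 higher and 238 lower of 9742 genes, and 8 higher of 50 CPM or more. Their medians were -0.055 for acrosome, -0.030 for CREM and spermatid transcription and -0.016 for outer dense fibres. Those for multicopy sex-linked genes and ribosomal proteins were -0.081 and -0.034, and Cycs had a log2 ratio of 0.47 instead of -0.64. Stage groups weighted equally, an alternative chosen after the data had been seen, gave 2 higher of 50 CPM or more. Genes with 10 or more counts gave 1626 higher and 1675 lower of 19144, since more genes of few counts enter. The cause was not tested for the others. The other 303 list medians stayed within the order-statistic interval of the median over their members, 32 of them with a change of sign. Of the values of named genes, 694 stayed within their counting interval and 148 moved outside it, 16 of these with a change of sign in genes under 1.5-fold, among them Aurka at 0.097 in late cells. At 3000 counts per cell, genes of 50 CPM or more past 1.5-fold were thus 45 higher and 30 lower, against 18 and 11 at full depth. Whether the full depth limits such genes was not tested by thinning.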
